A study of Mus musculus with 19 samples.

Results

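The genes described here encode the SNARE and exocytosis machinery, and they were followed in pancreatic islets of 2 mouse strains cultured at 2 glucose concentrations. Members were the array probes whose printed gene name began with Stx, Vamp, Syt, Rims or Cplx and a number, with Rab3 or Rab27 and a letter, or with Stxbp or Sytl, together with Snap23, Snap25, Snap29, Nsf, Napa, Napb and Napg. This rule found 68 gene names among the 41174 probes of the array. A signal well above background in all channels of at least 4 mice was required for testing, which 109 member probes of 62 names passed and 17 member probes did not, and which 29326 probes passed overall. Rab3c, Stx1b1, Stx1b2, Syt8, Syt14 and Sytl3 had no probe that passed, and probes of Rab27b, Rab3il1, Stx8, Stx18, Stxbp4, Syt1, Syt10 and Syt15 also failed while another probe of the same name was tested.

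The islets came from 10 C57BL/6 (B6) mice, which the study names as the J substrain, and 9 C57BLKS/J (BLKS) mice, all 12 weeks old and male, and the islets of different animals were not pooled. BLKS is an inbred strain related to B6 that carries segments of the DBA genome, and none of the groups carried a transgene or an obesity mutation. All islets were first kept for 48 h in 11 mM glucose and then for 24 h in 5 mM glucose (low glucose, 5 B6 and 5 BLKS mice) or in 20 mM glucose (high glucose, 5 B6 and 4 BLKS mice). The RNA of each mouse was labelled with Cy3 and with Cy5 and hybridised to Agilent two-colour arrays (20 arrays in all), so that a B6 mouse shared its arrays with the BLKS mouse of the same number and glucose concentration. B6 high glucose 5 had no such partner and was hybridised with B6 low glucose 1 on the 2 arrays scanned later.

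Secretion of insulin, like release of neurotransmitter, ends with the fusion of a vesicle with the plasma membrane. A vesicle SNARE of the VAMP family zips together with a syntaxin and a SNAP-25 family protein on the target membrane, Munc18 proteins (the Stxbp genes) and complexins steer this assembly, and synaptotagmins couple it to calcium. Rab3 and Rab27 bring granules to the membrane through effectors such as RIM and the synaptotagmin-like proteins (granuphilins and their relatives), and NSF with the SNAPs (Napa, Napb, Napg) takes the spent complexes apart again. In beta cells the complex of syntaxin 1A, SNAP-25 and VAMP2 drives release of insulin granules, while other syntaxins and VAMPs serve the Golgi, endosomes and lysosomes.

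Values are log2 signals without background subtraction, averaged over the dyes of a mouse. Negative control spots read between 50.8 and 60.9 in linear units, so the differences of dim probes, such as those of Stx1a and Syt7, are understated. Differences were tested with limma over all 29326 probes, and a probe was called at a Benjamini-Hochberg adjusted p under 0.05. The p-values measure the spread between mice. In whole islets, fewer cells of a type and less RNA per cell cannot be told apart.

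A pair of libraries went against its strain labels. On a scale set by 106 probes outside the member list, with 0 for the mean of B6 and 1 for the mean of BLKS mice in high glucose, B6 low glucose mouse 4 lay at 1.011 and BLKS low glucose mouse 5 at -0.046, whereas the other B6 low glucose libraries lay between -0.063 and 0.02 and the other BLKS low glucose libraries between 0.927 and 1.007. Both were kept under their labels in the first analysis, and each comparison was repeated without both. Because they were recognised by their strain-dependent probes, the strain difference in low glucose without them is not independent of that choice. High glucose groups held no such library. All 9 beta cell markers were tested, and Ins1, Ins2 and Iapp had a mean log2 signal of 15.99, near the upper limit of the scanner. Of the 9, Slc2a2, the glucose transporter GLUT2, was lower by 0.59 and Pdx1 higher by 0.40 in BLKS than in B6 islets of high glucose.

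Glucose moved members of this machinery in both directions and in both strains. In B6 islets 20 of the 109 member probes were called (13 higher and 7 lower in high glucose), where 9.49% of all probes were called, 5.43% higher and 4.06% lower. In BLKS islets 26 were called (14 higher and 12 lower), against 11.6% of all probes, 6.53% higher and 5.06% lower. Of these, 16 probes were called in both strains, 10 of them higher and 6 lower in both, and no member probe was called in opposite directions. The matching count over all probes is not given here, so this shared direction is not shown to be particular to the members. The median of the 109 member differences was -0.0165 in B6 and 0.00234 in BLKS islets on the log2 scale, beside -0.00575 and -0.00262 for all probes. Without both libraries that went against their labels, 27 probes were called in B6 islets (12.2% of all probes) and 26 in BLKS islets (9.87%). All 20 of the B6 calls and 23 of the 26 BLKS calls were among them, while the BLKS calls of Rims3, Syt12 and Vamp8 were lost. A random block for mice that shared arrays gave 18 calls in B6 (8.31% of all probes) and 27 in BLKS islets (12.0%). The split between higher and lower depended on the scaling: without scaling between arrays it was 3 higher and 5 lower in B6 islets and 9 higher and 10 lower in BLKS islets. Over all probes that setting gave 558 higher and 1046 lower in B6, and 676 higher and 1475 lower in BLKS islets. The authors' own log2 table, which lies closest to the mean signal rather than the processed signal, gave 2 higher and 4 lower in B6 and 8 higher and 0 lower in BLKS islets. Over all probes that table gave 270 higher and 942 lower in B6, and 637 higher and 360 lower in BLKS islets. The split thus changed across the whole array and not for the members alone.

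**Figure D1:**
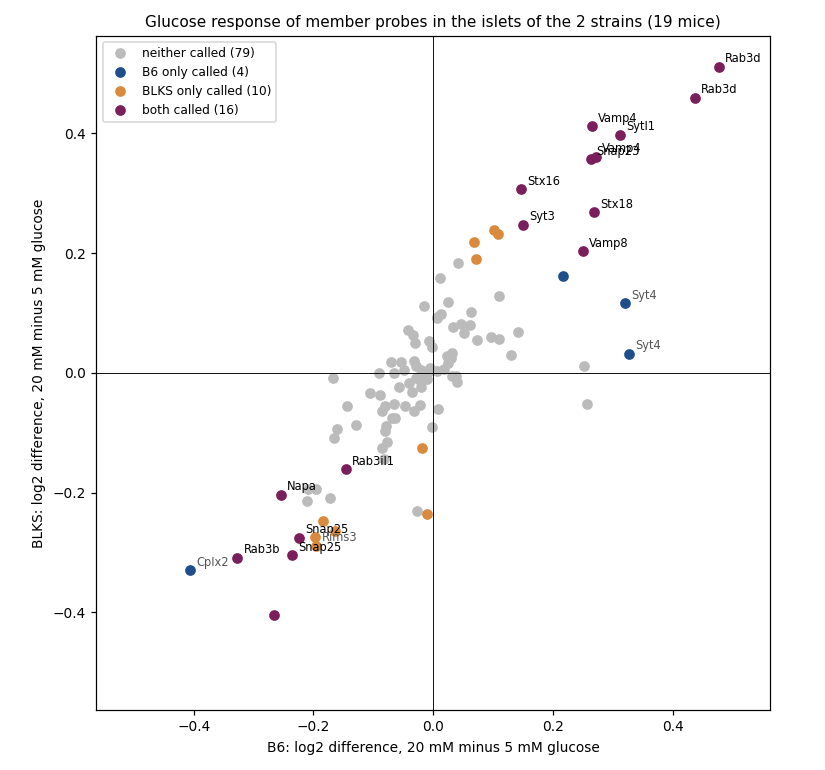
Glucose response of each of the 109 tested member probes in B6 islets (x axis, log2 difference of 20 mM minus 5 mM glucose) and in BLKS islets (y axis, the same difference), with colours for probes called by limma in neither, 1 or both strains over all 19 mice. Rab3d lies at the upper right and Rab3b and Snap25 at the lower left, and the 16 probes called in both strains have the same sign in both.

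The largest rise belonged to Rab3d, a small GTPase of secretory granules that is best known from exocrine cells. The log2 signal of its brighter probe (A_52_P432919) was 9.35, 9.49, 9.34, 9.59 and 9.25 in the 5 B6 mice of low glucose and 9.80, 9.91, 9.97, 9.88 and 9.86 in those of high glucose. In BLKS islets it was 9.65, 9.73, 9.84, 9.84 and 9.51 in low and 10.20, 10.25, 10.18 and 10.27 in high glucose. The low and high glucose mice of a strain did not overlap, and the highest low glucose value of B6 was that of mouse 4, a library that went against its label. Rab3d rose by 0.48 ± 0.06 (SE, 1.39-fold, adjusted p = 0.000116 by limma) in B6 and by 0.51 ± 0.07 (1.43-fold, adjusted p = 9.93e-05) in BLKS islets. Its second probe (A_52_P451389) rose by 0.44 and 0.46. Rab3b, another Rab3 isoform, went the opposite way. Its brighter probe (A_52_P362161) read 9.54, 9.5, 9.51, 9.16 and 9.55 in B6 low glucose, 9.10, 9.25, 9.09, 9.17 and 9.0 in B6 high glucose, 9.18, 9.26, 9.35, 9.11 and 9.46 in BLKS low glucose, and 8.83, 9.10, 9.01 and 8.89 in BLKS high glucose. Only mouse 4 of B6 low glucose reached down into the B6 high glucose range. Rab3b fell by 0.33 ± 0.08 in B6 (adjusted p = 0.0112 by limma) and by 0.31 ± 0.08 in BLKS islets (adjusted p = 0.0195). The second Rab3b probe (A_52_P339959) fell by 0.25 in BLKS islets and had -0.18 in B6 islets, where it was called only without both libraries (-0.25, adjusted p = 0.000758). The BLKS calls of Rab3b were lost without mouse 5 of BLKS low glucose or mouse 1 of BLKS high glucose, and also without BLKS high glucose 4 or 2 on 1 probe each (-0.36 to -0.26 and -0.28 to -0.20). Rab3il1, an exchange factor for Rab3, fell slightly in both strains, by 0.15 and 0.16. Rab3a, the main Rab3 of neurons and beta cells, had differences of -0.04 and 0.07 (adjusted p = 0.855 and 0.704 by limma), and Rab27a, which tethers insulin granules, had -0.09 and -0.13 (adjusted p = 0.595 and 0.363).

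Among the SNAREs of the plasma membrane, the SNAP-25 family split. Snap25 itself (A_51_P335555) had log2 signals of 10.99, 11.11, 11.18, 11.00 and 11.07 in B6 low glucose and of 10.81, 10.92, 10.84, 10.79 and 10.86 in B6 high glucose. The BLKS mice read 10.97, 11.02, 10.87, 10.83 and 11.10 in low and 10.68, 10.70, 10.54 and 10.82 in high glucose. Neither strain's glucose groups overlapped, although in BLKS the gap was small. Snap25 fell by 0.22 ± 0.06 in B6 (adjusted p = 0.0138 by limma) and by 0.28 ± 0.06 in BLKS islets (adjusted p = 0.00426), and a second probe (A_52_P286421) fell by 0.24 and 0.30, its B6 call being lost when the array pair was a random block (adjusted p = 0.077). The remaining, dimmer probe of Snap25 was not called. Snap23, the widely expressed relative of Snap25, rose. Its brightest probe (A_52_P155778) increased by 0.26 ± 0.06 in B6 and by 0.36 ± 0.06 in BLKS islets (adjusted p = 0.00673 and 0.000801), and the other 2 probes rose in BLKS islets by 0.24 and 0.19 and had 0.10 and 0.07 in B6 islets, where they were not called. Syntaxin 1A, the partner of SNAP-25 in beta cells, showed no called difference on its dim probe: the log2 signals were 6.98 to 7.11 in B6 low, 6.87 to 7.07 in B6 high, 6.95 to 7.08 in BLKS low and 6.92 to 7.0 in BLKS high glucose, and the glucose differences were -0.08 (95% confidence interval -0.164 to 0.0028) and -0.06 (-0.144 to 0.0323).

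Of the 6 tested Vamp names, Vamp4 and Vamp8 rose with glucose. Vamp4, which works between the Golgi and endosomes, had log2 signals on probe A_52_P112926 of 8.47, 8.17, 8.29, 8.40 and 8.20 in B6 low and 8.47, 8.61, 8.47, 8.64 and 8.66 in B6 high glucose. BLKS islets read 8.32, 8.29, 8.38, 8.33 and 8.07 in low and 8.65, 8.81, 8.62 and 8.68 in high glucose. The BLKS groups did not overlap, whereas in B6 the highest low glucose mouse lay level with the lowest high glucose mice. The rise was 0.26 ± 0.07 in B6 (adjusted p = 0.0141 by limma) and 0.41 ± 0.07 in BLKS islets (adjusted p = 0.000665), and probe A_51_P193346 rose by 0.27 and 0.36, whereas the remaining Vamp4 probe, A_52_P525070, had -0.08 and -0.10 and was not called. Vamp8, known from granule fusion in the exocrine pancreas and also present in beta cells, rose on its dimmer probe (A_51_P227826) by 0.25 in B6 and 0.20 in BLKS islets, the latter call being lost without both libraries (adjusted p = 0.0725), with the random block (adjusted p = 0.0523) and without any 1 of mice 1, 2 and 5 of BLKS low and mice 1 and 2 of BLKS high glucose (0.17 to 0.24 over the 19 fits that left out 1 mouse). Its brighter probe had 0.13 and 0.03 and was not called. The brightest probe of Vamp2, the vesicle SNARE of insulin granules, had -0.17 and -0.21 with adjusted p = 0.106 and 0.0524, and this BLKS difference reached -0.26 (adjusted p = 0.0081) without both libraries. Its other probes went the opposite way, with up to 0.04 in B6 and 0.18 in BLKS islets, and were not called with all mice. Without both libraries a Vamp2 probe was called higher in each strain, so the direction for Vamp2 varied with the probe. Of the 12 tested syntaxin names, Stx16 of the Golgi (0.15 and 0.31) and Stx18 of the endoplasmic reticulum (0.27 and 0.27) rose in both strains, and the endosomal Stx7 fell in BLKS islets by 0.26. The B6 call of Stx16 was held in only 6 of the 19 such fits (0.11 to 0.18).

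Of the regulators of SNARE assembly and disassembly, Napa and Cplx2 fell. Napa (alpha-SNAP), the adaptor that brings NSF to SNARE complexes, read 10.95, 11.07, 11.12, 11.13 and 11.11 in B6 low, 10.81, 10.84, 10.92, 10.79 and 10.75 in B6 high, 11.03, 11.21, 11.10, 11.09 and 11.18 in BLKS low and 10.87, 10.85, 11.01 and 10.95 in BLKS high glucose on its brighter probe (A_52_P336033). Every high glucose mouse lay below every low glucose mouse of its strain. Napa fell by 0.25 ± 0.04 in B6 (adjusted p = 0.00118 by limma) and by 0.20 ± 0.05 in BLKS islets (adjusted p = 0.00827), while its dimmer probe had -0.01 in B6 islets and fell by 0.23 in BLKS islets. Nsf itself had -0.05 and 0.01 on its brighter probe, with adjusted p = 0.757 and 0.976. Complexin 2 on probe A_51_P485161 read 13.18, 12.85, 13.05, 12.66 and 13.16 in B6 low and 12.44, 12.58, 12.53, 12.81 and 12.50 in B6 high glucose. BLKS islets read 12.61, 12.67, 12.63, 12.39 and 12.87 in low and 12.17, 12.27, 12.32 and 12.46 in high glucose. In both strains mouse 4 of low glucose and mouse 4 of high glucose overlapped, and in B6 low glucose the lowest value was that of the library labelled mouse 4. Cplx2 fell by 0.41 ± 0.10 in B6 islets (adjusted p = 0.0137 by limma), and in BLKS islets the difference of -0.33 missed the threshold (adjusted p = 0.0509) while another Cplx2 probe, A_51_P281525, fell by 0.27, a call lost without low glucose 1 or 2 or high glucose 2, 3 or 4 of BLKS (-0.31 to -0.24 over the 19 fits without 1 mouse). Cplx1 had -0.20 and -0.19 (adjusted p = 0.266 and 0.268).

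Of 14 tested synaptotagmin names, Syt3, Syt4 and Syt5 rose in B6 islets and Syt3, Syt7 and Syt13 in BLKS islets, while Syt12 fell slightly in the latter. Several of these calls were lost without 1 mouse. Of 19 such fits, the B6 call of Syt5 held in 12 (0.18 to 0.25), lost without low glucose 1, 2, 3 or 5 or high glucose 1, 3 or 5 of B6. That of Syt3 held in 14 (0.13 to 0.18), lost without low glucose 2, 3 or 5 or high glucose 3 or 5 of B6. Of the BLKS calls, Syt13 held in 15 fits (0.19 to 0.26) and was lost without low glucose 2 or high glucose 1, 2 or 4 of BLKS. Syt12 held in 12 (-0.14 to -0.11) and was lost without low glucose 1, 2, 4 or 5 or high glucose 2, 3 or 4 of BLKS. Syt4, a synaptotagmin that binds calcium poorly, read 8.37, 8.51, 8.29, 8.45 and 8.29 in B6 low and 8.79, 8.69, 8.61, 8.61 and 8.84 in B6 high glucose on probe A_52_P624302. The BLKS mice read 8.51, 8.19, 8.62, 8.51 and 8.46 in low and 8.65, 8.66, 8.39 and 8.27 in high glucose. The B6 groups did not overlap, and the BLKS groups did over most of their range. Syt4 rose in B6 islets by 0.33 ± 0.08 (adjusted p = 0.0168 by limma), and by 0.32 on its second probe, whereas the BLKS differences were 0.03 and 0.12. The 2 responses of Syt4 were compared directly, and the difference between them was -0.29 and -0.20 on its 2 probes with unadjusted p = 0.0254 and 0.028 and adjusted p = 1.0 for each. The call of probe A_52_P624302 was lost without B6 high glucose 5, the mouse of the later-scanned arrays (0.29, adjusted p = 0.0501). Syt7, a high-affinity calcium sensor of insulin granules, read 6.51, 6.49, 6.53, 6.61 and 6.45 in BLKS low glucose and 6.80, 6.76, 6.74 and 6.70 in BLKS high glucose. These groups did not overlap. Syt7 rose by 0.23 ± 0.04 in BLKS islets (adjusted p = 0.00201 by limma) and had 0.11 in B6 islets (adjusted p = 0.127, and 0.14 with adjusted p = 0.0154 without both libraries), and its second, dimmer probe was called in neither strain. Sytl1 (granuphilin's relative Slp1, a Rab27 effector) read 7.77, 7.74, 7.77, 8.01 and 7.78 in B6 low, 7.99, 8.32, 8.21, 8.08 and 8.04 in B6 high, 8.07, 8.15, 8.14, 8.15 and 7.95 in BLKS low and 8.39, 8.66, 8.41 and 8.51 in BLKS high glucose. In B6 low glucose it was again mouse 4 that overlapped with high glucose. Sytl1 rose by 0.31 ± 0.07 in B6 and 0.40 ± 0.07 in BLKS islets (adjusted p = 0.00714 and 0.00142). Sytl4 (granuphilin), the abundant member of that family in beta cells, had -0.21 and -0.19 with adjusted p = 0.0762 and 0.114.

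**Figure D2:**
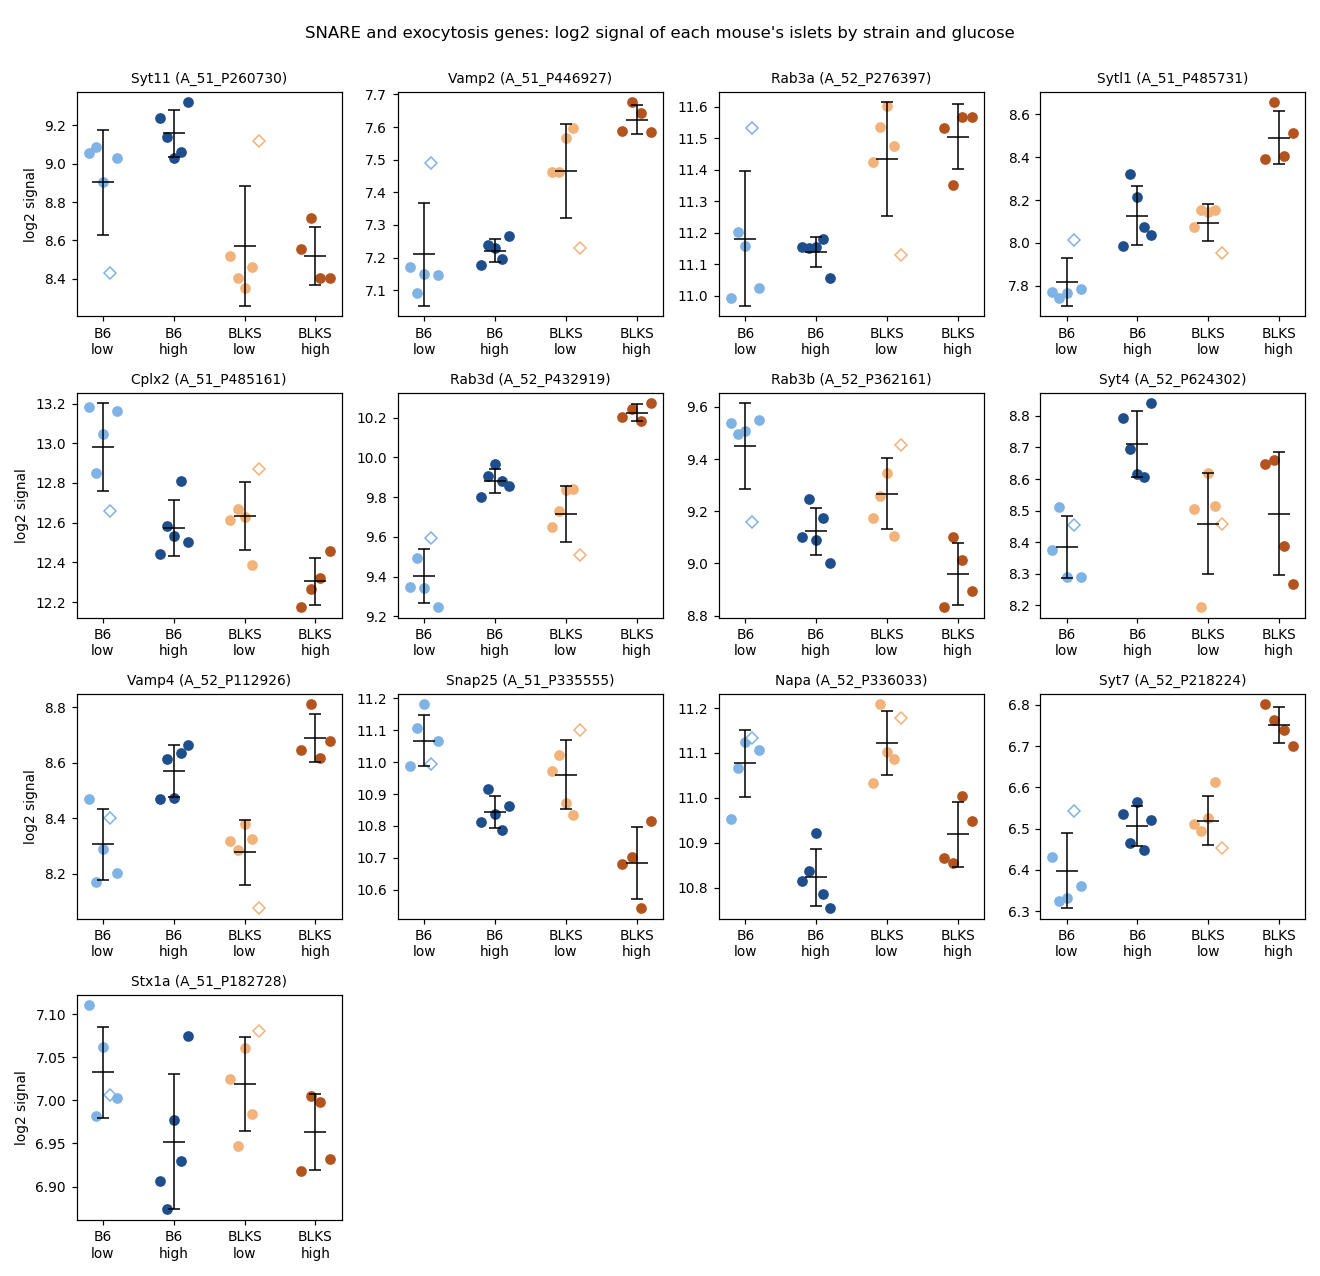
The log2 signal (y axis, a scale of its own in each panel) of 13 member probes in the islets of each mouse, by strain and glucose (x axis, low 5 mM and high 20 mM). Points are mice, black marks the group mean with its SD, and open diamonds are mouse 4 of B6 and mouse 5 of BLKS in low glucose, whose libraries went against their labels and which for Syt11, Rab3a and Vamp2 lie among the mice of the other strain.

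Other genes of the secretory pathway moved in the same comparisons. Of 18 tested SNAREs and SM proteins outside the member list, 6 were called higher and 2 lower in B6 islets, and 5 higher and 1 lower in BLKS islets. Ykt6 (0.29 and 0.37), Sec22b (0.30 and 0.18) and Bet1 (0.47 and 0.46), SNAREs of the route between endoplasmic reticulum and Golgi, rose in both strains. Of 25 granule cargo and membrane genes, 5 rose and 2 fell in B6 and 7 rose and 2 fell in BLKS islets, with Pam, the peptide-amidating enzyme (0.48 and 0.73), Pcsk1, a prohormone convertase (0.40 and 0.44), Ptprn, the granule protein IA-2 (0.34 and 0.73), and Syp, synaptophysin (0.38 and 0.56), among those that rose in both strains. None of 9 exocyst genes was called for glucose, and of 23 priming, tethering and scaffold genes only Myo5a, the granule motor, was, with 0.25 and 0.23. Rab3d, Vamp8, Snap23 and Sytl1 are also known in exocrine cells, so the acinar list was set beside them. None of its 12 tested genes was called higher with glucose, although 1 in B6 and 5 in BLKS islets had the higher mean. Ctrb1 fell by 0.36 and 0.31, and Cel fell by 0.34 in BLKS islets. The summed acinar signal ranged over 2385 to 3206 in B6 low, 2194 to 2651 in B6 high, 2762 to 3626 in BLKS low and 2330 to 3270 in BLKS high glucose. Of the 15 listed acinar genes, 12 were tested. The summed signal of 6 duct genes was 20180 to 21930 in B6 low and 23250 to 24870 in B6 high glucose, and 21420 to 24410 in BLKS low and 23530 to 26670 in BLKS high glucose. That of 6 mesenchymal genes was 2119 to 3842 in B6 low and 3257 to 6841 in B6 high glucose, with 2 of the 6 called higher. In other cell type lists, the endothelial marker Kdr fell by 0.29 in B6 and 0.31 in BLKS islets, and the alpha cell marker Ttr rose by 0.79 and 1.24. In BLKS islets endothelial Cdh5 fell by 0.30, macrophage Lyz2 by 0.60 and beta cell Slc2a2 by 0.74. The part of these cell types in the member differences was not tested.

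The promoters of members that moved in both strains are shown to set their sequence beside these responses. Of 14 names called in both strains by at least 1 probe each (Cplx2 by different probes), 12 had a promoter in RefSeq (build GRCm38.p6), and in 3 of them, Napa, Rab3il1 and Vamp4, the 250 bases before a start site held the palindrome CACGTG, the core of an E-box. These are printed from 5′ to 3′ on the strand of the gene, with CACGTG in capitals; Rab3il1 and Vamp4 have further start sites, and of the 2 overlapping windows of Rab3il1 with the motif the first is given. Rab3d, the member with the largest response in both strains, has no CACGTG there, and its capitals mark GGGCGG or its complement CCGCCC.
Napa, chr7:16098330-16098579, plus strand: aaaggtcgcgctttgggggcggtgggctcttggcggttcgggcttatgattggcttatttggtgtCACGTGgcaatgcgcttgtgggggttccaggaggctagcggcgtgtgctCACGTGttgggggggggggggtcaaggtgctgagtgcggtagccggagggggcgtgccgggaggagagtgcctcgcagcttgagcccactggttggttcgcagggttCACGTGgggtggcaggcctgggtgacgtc
Vamp4, chr1:162570265-162570514, plus strand: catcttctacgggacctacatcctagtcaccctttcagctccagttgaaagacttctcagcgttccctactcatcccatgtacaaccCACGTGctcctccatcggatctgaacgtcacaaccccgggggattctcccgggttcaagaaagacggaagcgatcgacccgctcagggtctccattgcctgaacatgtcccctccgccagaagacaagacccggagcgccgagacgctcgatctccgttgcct
Rab3il1, chr19:10017944-10018193, plus strand: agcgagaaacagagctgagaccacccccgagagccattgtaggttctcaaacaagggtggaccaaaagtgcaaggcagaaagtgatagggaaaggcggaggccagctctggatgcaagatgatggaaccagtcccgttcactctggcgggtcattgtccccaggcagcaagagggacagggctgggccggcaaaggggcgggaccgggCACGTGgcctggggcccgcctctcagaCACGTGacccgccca
Rab3d, chr9:21918184-21918433, minus strand: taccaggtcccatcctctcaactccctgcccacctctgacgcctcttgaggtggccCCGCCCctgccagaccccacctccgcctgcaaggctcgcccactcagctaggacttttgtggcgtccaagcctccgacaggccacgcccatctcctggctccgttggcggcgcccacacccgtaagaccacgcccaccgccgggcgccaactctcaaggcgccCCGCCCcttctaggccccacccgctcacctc
Napa thus carried CACGTG at 3 places, beginning 185, 136 and 29 bases before the start, Rab3il1 at 42 and 15 bases, and Vamp4 at 163 bases. Napa and Rab3il1 fell and Vamp4 rose. Searched on both strands, CACGTG was found in 16.1% of the 62 promoters of 48 tested member genes that RefSeq lists here and in 6.02% of all 32851 promoters, which include those of noncoding genes. GGGCGG, searched the same way, was found in 61.3% and 32.7%, CCAAT in 27.4% and 33.8%, TGACGTCA in 1.61% and 1.55%, and TTCAGCACC in 0 of the member promoters and in 0.301% of all. A match describes letters and not binding.

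**Figure D3:**
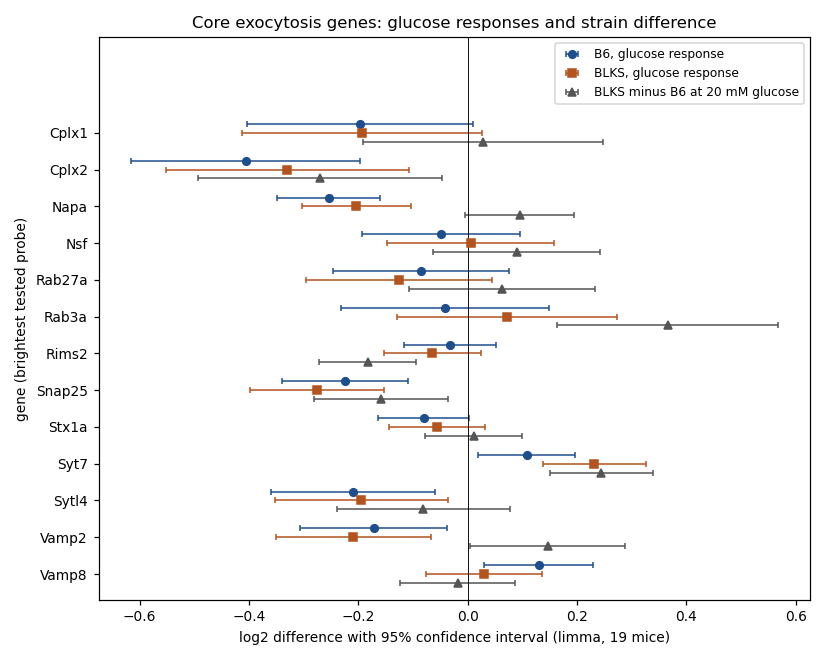
Log2 differences with 95% confidence intervals, not adjusted for the number of probes (x axis, limma over 19 mice), for the brightest tested probe of 13 core exocytosis genes (y axis): the glucose response of B6 (circles) and of BLKS islets (squares) and the strain difference in high glucose (triangles). Napa and Snap25 lie left of 0 for glucose in both strains, and Rab3a and Syt7 lie right of 0 for strain.

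In high glucose 16 member probes of 14 names differed between the strains (10 higher and 6 lower in BLKS), against 11.1% of all probes (4.99% higher and 6.12% lower). The count depended on the design. Treating the B6 and BLKS mouse of an array pair as a random block, 44 member probes were called (25.2% of all probes), and with the pair as a fixed block 33 (20.0%). Without both libraries that went against their labels, which leaves the high glucose mice and changes only the pooled spread, 28 were called (15.3%), including all 16. The median member difference was 0.0196, and 0.00656 for all probes.

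The lowest member in BLKS was Syt11, a synaptotagmin that does not bind calcium and is known from vesicle and membrane traffic. On probe A_51_P260730 its log2 signals were 9.24, 9.14, 9.03, 9.06 and 9.32 in B6 and 8.55, 8.71, 8.40 and 8.40 in BLKS islets of high glucose. In low glucose they were 9.05, 9.09, 8.91, 8.43 and 9.03 in B6 and 8.52, 8.40, 8.35, 8.46 and 9.12 in BLKS islets. The strains stood apart in high glucose, and in low glucose the only values out of place were the fourth of B6 and the fifth of BLKS, both from the libraries that went against their labels. Syt11 was lower in BLKS by 0.64 ± 0.14 in high glucose (1.56-fold, adjusted p = 0.0091 by limma). In low glucose the difference was -0.33 with all mice (adjusted p = 0.23) and -0.59 ± 0.07 without both libraries (1.5-fold, adjusted p = 2.02e-05), and -0.33 with adjusted p = 0.031 with the random block. A second, dim Syt11 probe had -0.18 in high glucose and was not called.

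Rab3a was higher in BLKS islets. It read 11.15, 11.15, 11.16, 11.18 and 11.06 in B6 and 11.53, 11.35, 11.57 and 11.57 in BLKS islets of high glucose, and 10.99, 11.20, 11.16, 11.53 and 11.02 in B6 and 11.43, 11.54, 11.60, 11.47 and 11.13 in BLKS islets of low glucose. The high glucose groups did not overlap. The difference was 0.37 ± 0.10 in high glucose (1.29-fold, adjusted p = 0.0202 by limma), a call lost without BLKS high glucose 1, 3 or 4 (0.34 to 0.42 over the 19 fits without 1 mouse), and 0.25 in low glucose with all mice (adjusted p = 0.188) against 0.42 ± 0.06 without both libraries (adjusted p = 5.65e-05). Rab3d was higher in BLKS as well, by 0.34 ± 0.07 in high glucose (adjusted p = 0.00531 by limma) and by 0.41 in low glucose without both libraries. In all 9 array pairs the mouse labelled BLKS had the higher Rab3d signal. In low glucose pair 4 both libraries lay at the BLKS end of the strain scale (1.011 and 1.007), and in pair 5 both at the B6 end (-0.046 and -0.063). On that scale these pairs hold no strain contrast, and Rab3d differed by 0.25 and 0.26 in them. Rab3b was lower by 0.26 in high glucose on its dimmer probe A_52_P339959 (adjusted p = 0.0203 by limma), while the brighter probe had -0.16 and was not called. In low glucose without both libraries it was lower on both probes, by 0.31 and 0.30. Sytl1 was higher by 0.37 ± 0.07 in high glucose (adjusted p = 0.00561 by limma), again in 9 of 9 pairs, with 0.14 and 0.17 in low glucose pairs 4 and 5. In low glucose its difference was 0.28 with all mice (adjusted p = 0.124, not called) and 0.36 without both libraries.

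Vamp2 gave a difference that varied with the probe. Probe A_51_P446927 read 7.18, 7.24, 7.23, 7.20 and 7.27 in B6 and 7.59, 7.68, 7.64 and 7.58 in BLKS islets of high glucose, without overlap. In low glucose it read 7.17, 7.09, 7.15, 7.49 and 7.15 in B6 and 7.46, 7.46, 7.57, 7.60 and 7.23 in BLKS islets, where only the same 2 libraries were out of place. The difference was 0.40 ± 0.07 (1.32-fold, adjusted p = 0.00293 by limma), and 0.40 on A_52_P240905. The brightest probe, A_52_P301495, had 0.15 in high glucose (adjusted p = 0.195, and 0.0413 with the random block) and 0.27 in low glucose without both libraries (adjusted p = 0.00338). All 3 Vamp2 probes therefore had the higher mean in BLKS islets, with unequal sizes. The mouse labelled BLKS was higher in 8 or 9 of the 9 array pairs, a count that includes low glucose pairs 4 and 5. Among the other SNARE partners, Syt7 was higher in BLKS by 0.24 ± 0.04 in high glucose (adjusted p = 0.00328 by limma) on its brighter probe, while the dimmer probe had 0.06 and was not called. Syt5 was higher by 0.21, a call present in only 7 of the 19 fits without 1 mouse (0.17 to 0.25). The active zone protein Rims2 was lower by 0.18 ± 0.04 (adjusted p = 0.0106) on 1 of its 2 probes, and the dimmer Napa probe by 0.29 (adjusted p = 0.00763) while the brighter had 0.10. Stxbp6 (amisyn), a SNARE-binding protein that lacks a membrane anchor, was lower by 0.35 ± 0.10, a call lost without B6 high glucose 2 or 5 or any 1 of the 4 BLKS high glucose mice (-0.38 to -0.30), and Syt4 was lower by 0.26 on probe A_52_P628915. Stx16 (0.19), the second Rab3d probe (0.16) and Stxbp5 or tomosyn (0.15) were slightly higher. Stxbp5 was called on 1 of its 4 tested probes, and A_52_P234695 had -0.09, with the mouse labelled BLKS lower in all 9 array pairs, low glucose pairs 4 and 5 included. Stx1a (0.01), Snap25 (-0.16) and Nsf (0.09) were not called in high glucose.

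Lower in BLKS than in B6 islets of high glucose were 4 of 6 mesenchymal markers, 2 of 6 endothelial and 2 of 6 tested macrophage markers. The mesenchymal sum was 1411 to 3132 in BLKS and 3257 to 6841 in B6, the endothelial sum 1339 to 1504 and 1565 to 1835, and the macrophage sum 2335 to 2752 and 2885 to 4109, none of which overlapped. The macrophage sum holds Lyz2, the brightest gene of its list, at -0.76, and the other call was C1qa at -0.37. The median of the 6 macrophage differences was -0.003, and 2 of the 6 genes had the higher mean in BLKS. The part of these cell types in the lower values of Syt11, Stxbp6 and Syt4 was not tested. The acinar sum, set beside Rab3d, Sytl1 and Vamp2, overlapped between the strains (2330 to 3270 in BLKS and 2194 to 2651 in B6), with 1 of 12 acinar genes, Cela1, called higher in BLKS. Yet 10 of the 12 had the higher mean in BLKS, with a median difference of 0.24. The brightest genes of this sum, Cel and Ctrb1, had -0.02 and -0.04. The part of acinar cells in these member differences was not tested. Of the priming, tethering and scaffold genes 2 were higher and 5 lower, among them the priming factors Cadps (-0.89) and Cadps2 (-0.44) and, in the other direction, Unc13a (0.69). Granule genes included 6 higher and 4 lower, from Ptprn (0.69) to Synpr or synaptoporin (-1.62).

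In low glucose, with all mice under their labels, limma called 0 member probes and 0 of all probes, and 26 member probes had an unadjusted p under 0.05 among 4713 of all probes. A random block for the array pair gave 26 member calls (16.1% of all probes), and a fixed block 18 (8.04%). Without both libraries 26 were called (15 higher and 11 lower in BLKS, against 15.6% of all probes, 7.06% higher and 8.57% lower), and 12 of these were also called in high glucose with all mice, all 12 in the same direction. The matching count over all probes is not given here, so this too is not shown to be particular to the members. Complexin 2 had the second largest member difference in low glucose without both libraries. Its probe A_51_P485161 was lower in BLKS by 0.49 ± 0.09 (1.40-fold, adjusted p = 0.000784) and by 0.27 in high glucose with all mice, where it missed the threshold (adjusted p = 0.115). Of the 4 tested Cplx2 probes, 2 were called lower in low glucose without both libraries. Probe A_51_P281525 went the other way, with 0.15 in that comparison and 0.03 in high glucose, and was called in neither. Of the 3 tested probes of Syt14l (now Syt16), a synaptotagmin without calcium binding, 2 were lower by 0.36 and 0.32 in low glucose without both libraries, whereas the other, A_52_P354070, had 0.03 and was not called. Stxbp3 (Munc18-3) was lower by 0.33. The mouse labelled BLKS had the lower signal of Cplx2 probe A_51_P485161 in all 9 array pairs. That count includes low glucose pairs 4 and 5, which hold no strain contrast on the strain scale. The probe differed by -0.27 and -0.29 in these pairs, so the count is not a count of strain differences.

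**Figure D4:**
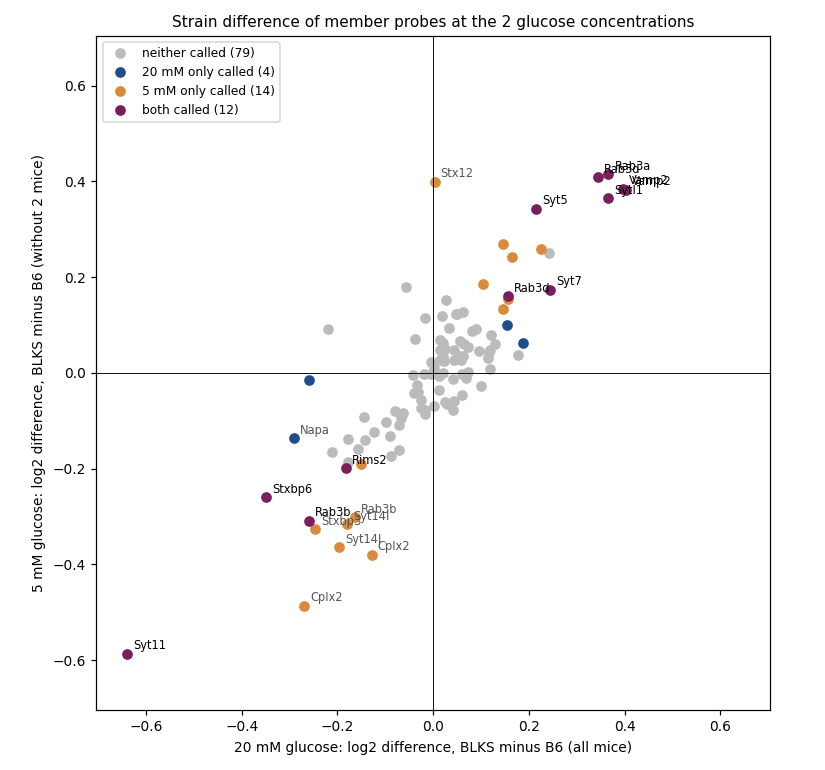
Strain difference (BLKS minus B6, log2) of each of the 109 tested member probes in high glucose with all mice (x axis) and in low glucose without the pair of libraries that went against their labels (y axis), coloured by where limma called them. Syt11 lies at the lower left and Rab3a, Rab3d, Vamp2 and Sytl1 at the upper right, while Stx12 lies at 0.00 in high and 0.40 in low glucose.

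Stx12 (syntaxin 12/13, a SNARE of recycling endosomes) was the only member whose responses to glucose differed between the strains in any of the fits of that contrast. Its log2 signals were 10.27, 10.23, 10.28, 10.68 and 10.15 in B6 low, 10.37, 10.28, 10.33, 10.25 and 10.25 in B6 high, 10.61, 10.59, 10.69, 10.64 and 10.11 in BLKS low and 10.28, 10.32, 10.38 and 10.20 in BLKS high glucose. Mouse 4 of B6 lay with the BLKS mice of low glucose, and mouse 5 of BLKS with the B6 mice. With all mice the difference between the responses was -0.20 (adjusted p = 1.0 by limma), and no member was called, as against 0.0409% of all probes, and with a random block none against 0.798%. At an unadjusted p under 0.05 there were 4 of the 109 member probes and 1301 of all 29326 probes. Without both libraries the difference was -0.40 ± 0.06 (adjusted p = 0.0158, 0.058% of all probes called), with Stx12 lower in high than in low glucose by 0.34 in BLKS islets and a B6 difference of 0.06. For all other members, a difference between strains in the glucose response was not detected at this number of mice.

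**Figure D5:**
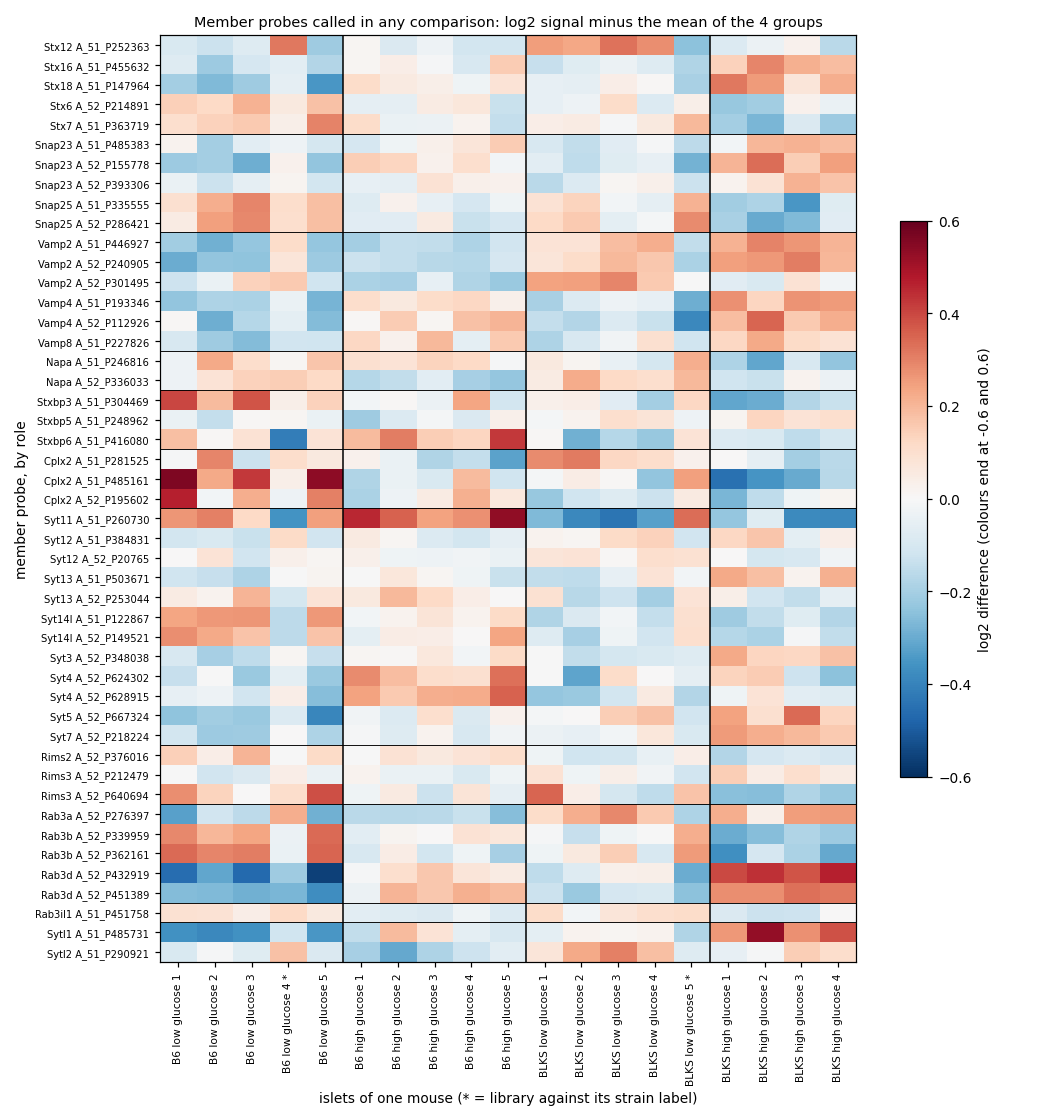
Shown are 47 member probes of 31 names called in a comparison, with all mice or without both libraries (rows, grouped by role) in the islets of each of the 19 mice (columns, by group), as log2 signal minus the mean of the 4 group means. Colours end at -0.6 and 0.6. The starred libraries, mouse 4 of B6 and mouse 5 of BLKS in low glucose, show the colours of the other strain in the rows of Stx12, Syt11, Syt14l and Rab3a.

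The remaining 61 tested member probes were called in no comparison of either fit. In the first analysis, 33 names had 2 or more tested probes, and none had probes called in opposite directions within a comparison. For glucose in BLKS islets, all tested probes of 4 of these names were called in the same direction. For 8 further names only some probes were called. Without both libraries, Vamp2 had probes called in opposite directions for this BLKS response. With the random block, strain calls in high glucose covered 32 names, 17 with a higher and 17 with a lower probe. Names without a called probe, with all mice or without both libraries, included the syntaxins Stx1a, Stx3 and Stx4a of the plasma membrane, the synaptotagmins Syt2, Syt6 and Syt9, Vamp1, Vamp3 and Vamp5, Nsf, Napb and Napg, Rab27a and Rab27b, and Sytl4 and Sytl5.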

How the data were processed

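Islet RNA of 19 mice was hybridised to 20 two-colour Agilent whole mouse genome arrays, with each mouse in both dyes. The deposited scanner files hold intensity values per spot, made by the authors with Agilent Feature Extraction (version 9.5.3.1 per the file headers, 8.1 in the submitters' notes), dye-normalised but without background subtraction. The authors also deposited a log2 table with 1 value per mouse, which lay close to the mean over dyes of the log2 mean signal and was used as an alternative only.

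Here log2 processed signals of 41534 spots were taken, outlier spots were left out, arrays were scaled between each other (Aquantile in limma 3.58.1, R 4.3.3), and spots of a probe and channels of a mouse were averaged. Testing required a signal well above background in all channels of at least 4 mice. That flag was set for 83.9% of negative control spots in Cy3 and 0.319% in Cy5 (medians), so the filter rested mostly on Cy5. Group means of all 19 mice were fitted with limma, and p-values were adjusted by Benjamini-Hochberg over all 29326 tested probes, at a threshold of 0.05. The number of mice limits the precision. The fit was tested on simulated data. Alternatives were normexp background correction (offset 50), no scaling, quantile normalization, other filters, Cy5 alone, the methods' linear model, the array pair as a block, no later-scanned arrays, and leaving out mice. Samples were grouped by their titles. Probe names were matched to RefSeq by accession for 99 member probes and by symbol for 26, and 1 was unmatched. Different probes of a gene were tested separately.

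Named were the core genes of granule fusion by their brightest tested probe, and member probes called in a comparison. Counts cover all members, of which 1 gene is not reported here by name. The members and lists were chosen with earlier results of these data known. The figures were drawn with matplotlib 3.10.9 in Python 3.11.15.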

Additional observations from a re-analysis of the deposited data

Results flagged for a closer look

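In 84 groups of mice (21 member probes), 8 had a highest or lowest mouse set apart from the others, where chance alone sets apart about 5% of groups. Syt11 on probe A_51_P260730 was lowest in B6 low glucose mouse 4 (8.43, nearest mouse 8.91) and highest in BLKS low glucose mouse 5 (9.12, nearest 8.52). Vamp2 on A_51_P446927 (7.49, nearest 7.17) and Sytl1 (8.01, nearest 7.78) were highest in B6 low glucose mouse 4, and Rab3b on A_52_P362161 was lowest in the same mouse (9.16, nearest 9.5). These 5 values come from the libraries that went against their strain labels. Rab3a was lowest in B6 high glucose mouse 5 (11.06, nearest 11.15) and in BLKS high glucose mouse 2 (11.35, nearest 11.53), and Vamp2 on A_52_P301495 was highest in B6 high glucose mouse 3 (10.21, nearest 10.08).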

How the results depend on the processing

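The count of member probes called varied with the source of the values, the scaling, the array pair and the libraries that went against their labels. For the strain difference in high glucose (16 probes) it was 33 with the array pair as a fixed replicate block, 44 as a random one, 28 without both libraries (an alternative whose use for this comparison was added after seeing the data), 8 without scaling (5.36% of all probes), 5 in the authors' log2 table (3.19%), 39 in the linear model of single dye values (22.4%), and 11 to 24 without 1 mouse (lowest without BLKS high glucose 1, highest without B6 low glucose 4). In low glucose (0 probes) it was 18, 26 and 26 in the first 3 of these, 26 in the linear model (18.1% of all probes), and 0 to 19 without 1 mouse (19 without B6 low glucose 4, 18 without BLKS low glucose 5). For B6 glucose responses (20 probes) it was 8 without scaling (5.47%), 6 in the authors' table (4.13%), 35 in the linear model (19.8%) and 14 to 25 without 1 mouse. For BLKS (26 probes) it was 8 in the authors' table (3.4%) and 19 to 29 without 1 mouse. The difference between the responses (0 probes) gave 1 probe without both libraries and 0 to 0 without 1 mouse. Single dye values of a mouse are not independent, so the linear model's counts are not comparable. Mice of an array pair deviated together with a median correlation of 0.483 over 9 pairs (0.0205 to 0.695), against -0.00691 for other pairs.

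Signs changed in 4 cases, all of small values. Snap23 A_52_P155778 and Vamp4 A_51_P193346 had -0.030 and -0.034 for strain in low glucose in the authors' table, and Vamp2 A_52_P240905 had a B6 glucose response of -0.022 without scaling and -0.068 in that table, against 0.04. Normexp correction and quantile normalization each left 107 of the values for named probes on the same side of the threshold, and 44 lost their call in the authors' table. The cause was not tested. Signal over background limits what dim probes can show.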
